A study of Caenorhabditis elegans with 44 samples.

Results

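miR-47 and miR-46 are microRNAs of *Caenorhabditis elegans* that are made from separate hairpins and are known as a seed family. Every row of the count table named miR-47 or miR-46, with any strand suffix, was taken, which gave 4 of 437 strands: miR-47-3p, miR-47-5p, miR-46-3p and miR-46-5p. All 4 had a mean of at least 10 counts and so were among the 272 strands tested. The libraries came from whole animals of the wild-type strain N2, which carried no mutation or transgene and received no added agent. Arrested first-stage larvae were plated together at 25 °C, and pooled animals were collected at every hour from 5 h to 48 h, which spans larval growth and the start of adult life. Each hour was a single library, so there were 44 libraries and no replicates, and the scatter of hours around a fitted curve takes the place of a replicate spread. All p-values below therefore describe scatter within 1 time course, in which neighbouring hours are not independent.

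A microRNA hairpin is cut to a short duplex, from which an Argonaute protein usually keeps the guide strand while the passenger strand is lost. The guide finds its messenger RNA targets mainly through the seed near its 5' end, so guides with the same seed can bind the same sites and can cover for each other. The miR-47 and miR-46 guides are nearly identical in sequence and share their seed with miR-281 of insects. Their sequences were not analysed here.

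In the WBcel235 assembly (the authors aligned to ce10, another build), the mir-47 hairpin lay on the plus strand of chromosome X from 13921250 to 13921346. Its 22-base mature strands were annotated at 13921268 to 13921289 and at 13921310 to 13921331. No annotated gene overlapped it, and the nearest was the protein-coding gene meg-2 on the minus strand, 1297 bases away. The mir-46 hairpin lay on the plus strand of chromosome III from 13660515 to 13660611, with mature strands at 13660529 to 13660550 and at 13660575 to 13660596. A non-coding RNA on the minus strand, ZK525.4 (13660520 to 13660603), overlapped it, and the authors counted reads of the same orientation only. Neither hairpin lay in an exon, an intron or a UTR of a protein-coding gene.

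Library totals had a median of 10678292 counts and ranged up to 14672735. The least deep, that of 38 h, had only 1669246 counts and still held 6657 counts of miR-47-3p, 441 of miR-47-5p, 8549 of miR-46-3p and 2191 of miR-46-5p. Levels are given as normalised counts, where each library was brought to the mean total of the libraries. The 95% intervals of single libraries cover counting error only. They treat reads as independent, which PCR copies of a molecule are not, so they may be too narrow even for that. Composition shifted late in the series. The 8 guides of the miR-35 family, known from embryos and the germ line, held on average 0.34% of the counts of the libraries of 29-35 h, 2.42% of those of 36-42 h and 10.7% of those of 43-48 h. In whole animals, fewer cells of a type and less RNA per cell cannot be told apart.

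In both hairpins the 3p strand was the more abundant and is called the guide here. miR-47-3p had 29977 normalised counts at its lowest hour (5 h), a median of 38577 and 47659 at its highest (29 h). miR-46-3p had 41178 at its lowest hour (46 h), a median of 74833 and 103589 at its highest (29 h). By mean level miR-47-3p (38647) stood at rank 41 and miR-46-3p (72880) at rank 29 among the strands of the table, so both belonged to the well expressed microRNAs of the worm. The summed guides held between 0.726% (46 h) and 1.43% (29 h) of a library.

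The passengers were also well counted. miR-47-5p had 1695 normalised counts at its lowest hour (19 h), a median of 2772 and 4388 at its highest (27 h). miR-46-5p had 9358 at its lowest hour (46 h), a median of 19656 and 26925 at its highest (13 h). The order of levels, from low to high, was miR-47-5p, miR-46-5p, miR-47-3p and miR-46-3p in 44 of 44 libraries. The closest neighbours in that order were the guides at 46 h, where miR-47-3p stood at 35561 (95% interval 35209 to 35915) and miR-46-3p at 41178. Their hourly ranges overlapped between hours, but in no library did the order turn.

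**Figure D1:**
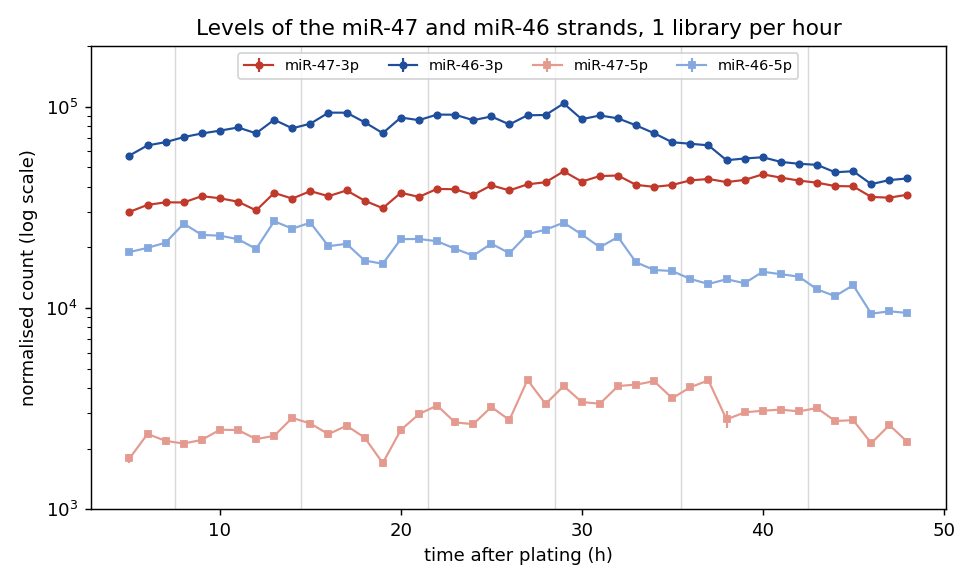
Normalised counts of the 4 strands (log axis) against hours after plating, with 1 point per library, bars for the 95% counting interval and grey lines between the blocks of hours. The guides miR-47-3p and miR-46-3p are circles and the passengers miR-47-5p and miR-46-5p are squares. miR-47-3p is highest at 29 h (47659), the miR-46 strands go down after about 32 h, and the guides are closest at 46 h.

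To ask whether the members oscillate with the molts, a rhythm of 7 h, the length of a molting cycle at this temperature, was fitted to each strand. None of the 4 did between 8 h and 35 h, where the call needed an adjusted p under 0.05 in edgeR and a fitted amplitude, in log2 units, of 0.5 or more. This call was made for 14.3% of the tested strands. The fitted amplitude was 0.07 ± 0.03 (SE) for miR-47-3p, 0.07 ± 0.06 for miR-47-5p, 0.07 ± 0.04 for miR-46-3p and 0.14 ± 0.05 for miR-46-5p, with adjusted p of 0.18, 0.704, 0.535 and 0.146. The upper 95% bounds of these amplitudes were 0.13, 0.18, 0.15 and 0.24, all below the 0.5 used for the call, and the median amplitude of all strands was 0.14. At these upper bounds the peak stood 1.19-fold above the trough for miR-47-3p and 1.40-fold for miR-46-5p. The rhythm of miR-46-5p, still small, passed the adjusted p alone with a period of 7.5 h (0.024), a spline trend (0.011) or the window 8-28 h (0.0128), and without 32 h (0.0494) or 35 h (0.0364). The adjusted p alone was passed by 20.6% of strands.

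Across the same 28 libraries both strands of miR-47 rose. The fitted change over 8-35 h was 0.43 ± 0.07 log2 units for miR-47-3p (1.35-fold, adjusted p = 2.36e-06) and 0.94 ± 0.14 for miR-47-5p (1.92-fold, adjusted p = 6.42e-07). The median change of all strands was 0.06, and 39.3% of strands had a higher level at that adjusted p, so a rise as such was common. Rises of at least 1 log2 unit that also passed made up 27.9% of strands, and neither strand of miR-47 was among them. miR-47-5p reached 1.05 with TMM factors (adjusted p = 1.08e-09). In a fit of 15-35 h, a window shorter than 27 h, its slope was 1.23 per 27 h (adjusted p = 6.69e-05). Both rises held with autocorrelated residuals (0.43 and 0.93) and with each library left out.

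For the miR-46 strands the same fit gave no rise. miR-46-3p changed by 0.16 ± 0.10 over 8-35 h (adjusted p = 0.132). Its direction followed the window. The slope per 27 h was 0.41 in a fit of 8-28 h (adjusted p = 0.00175) and -0.08 in a fit of 15-35 h (adjusted p = 0.601). The change of miR-46-3p also passed with DESeq2 size factors (0.20, adjusted p = 0.0298) and without 35 h (0.24, adjusted p = 0.0123). miR-46-5p had a change of -0.29 ± 0.13 with an adjusted p of 0.0422, a direction called for 36.0% of strands. That call was lost without any of 11 hours (8, 10, 11, 13, 14, 15, 23, 24, 33, 34 and 35 h), with adjusted p of up to 0.138, with TMM factors (-0.20, adjusted p = 0.147) and in 6 further settings.

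To follow the whole series, levels were averaged over blocks of 7 h, with shorter blocks at the start (5-7 h) and the end (43-48 h). The block means of miR-47-3p were 31969, 34379, 35775, 39479, 43172, 43618 and 38269 normalised counts from the first block to the last. Those of miR-46-3p were 62605, 76602, 85686, 88554, 84082, 57132 and 45748. The highest block mean was at 36-42 h for miR-47-3p and at 22-28 h for miR-46-3p, but with total-count scaling neither block differed from the one before it beyond the error (steps of 0.02 and 0.05, adjusted p = 0.814 and 0.625), and the step of miR-47-3p changed sign without 35 h or 40 h. The passengers had block means of 2113, 2382, 2433, 3191, 3853, 3357 and 2600 for miR-47-5p and of 19967, 23622, 20750, 20933, 19954, 14047 and 10865 for miR-46-5p. The highest block mean was at 29-35 h for the passenger of miR-47 and at 8-14 h for that of miR-46. The order in time of these highest blocks was not tested.

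Early steps between blocks were small. miR-47-3p rose by 0.14 ± 0.05 log2 units at 22-28 h (adjusted p = 0.0294) and by 0.13 ± 0.05 at 29-35 h (adjusted p = 0.0465), each relative to the block before, in the edgeR block model. miR-47-5p rose by 0.39 ± 0.11 (adjusted p = 0.00494) and 0.28 ± 0.11 (adjusted p = 0.0429) at the same steps. Higher levels were called for 21.3% of strands at each of these steps. miR-46-3p was higher at 8-14 h than at 5-7 h by 0.25 ± 0.09 (adjusted p = 0.0384), a call made for 18.8% of strands and lost with TMM factors (0.16, adjusted p = 0.241), without 7 of the hours in turn (5, 6, 7, 11, 12, 13 and 14 h, adjusted p up to 0.184) and in 6 other settings. With autocorrelated residuals only the step of miR-47-5p at 22-28 h still passed (adjusted p = 0.0412). Calls near the threshold also depended on single hours. The step of miR-47-3p at 22-28 h was lost without 16, 18, 19, 25, 27 or 28 h (adjusted p up to 0.087) and its step at 29-35 h without any of 16 hours (6, 9, 10, 11, 16, 18, 22, 23, 24, 26, 29, 31, 32, 33, 39 and 41 h, up to 0.114). That of miR-47-5p at 29-35 h was lost without 22, 23, 24, 26, 28, 29, 32, 33 or 34 h (up to 0.102), without the filter on low counts (adjusted p = 0.0617) and without cosine and sine (adjusted p = 0.0612).

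The guides parted most between 29-35 h and 36-42 h. miR-47-3p had 42159, 43211 and 46048 normalised counts as lowest, median and highest of the 7 hours of 36-42 h, against 39913, 42390 and 47659 for those of 29-35 h, and the blocks overlapped. miR-46-3p had 51960, 55202 and 65359 at 36-42 h, against 66460, 86510 and 103589 at 29-35 h, so its blocks did not overlap. miR-46-5p had 13149, 13917 and 15122 at 36-42 h, against 15240, 20015 and 26503 at 29-35 h. It too had no overlap between the blocks, and how many other strands lacked one was not counted. The fitted step was 0.02 ± 0.05 for miR-47-3p (adjusted p = 0.814) and -0.21 ± 0.11 for miR-47-5p (adjusted p = 0.124). It was -0.56 ± 0.07 for miR-46-3p (adjusted p = 3.51e-08) and -0.50 ± 0.10 for miR-46-5p (adjusted p = 8.57e-05), and a fall at this step was called for 33.5% of all strands. Without 37 h the step of miR-47-5p passed as lower (-0.28, adjusted p = 0.0369).

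Scaling matters for this late part of the series, because the median of all strands itself moved by -0.25 at this step. Relative to that median, miR-47-3p stood at 0.26 and miR-47-5p at 0.04, while miR-46-3p stood at -0.31 and miR-46-5p at -0.25. With TMM factors the median of all strands at this step was -0.03. With them miR-47-3p had 0.23 (adjusted p = 0.00862) and miR-46-3p had -0.34 (adjusted p = 0.000299), so that miR-47-3p passed as higher with TMM factors and did not pass with total counts, whereas miR-46-3p fell under either scaling. The fall of miR-46-3p kept its call in every setting run, and that of miR-46-5p in all but the fit with autocorrelated residuals (-0.41, adjusted p = 0.0519).

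At the last step all 4 strands had lower levels with total-count scaling. The fitted step at 43-48 h relative to 36-42 h was -0.19 ± 0.06 for miR-47-3p, -0.35 ± 0.12 for miR-47-5p, -0.32 ± 0.07 for miR-46-3p and -0.37 ± 0.10 for miR-46-5p (adjusted p = 0.00559, 0.0134, 0.000395 and 0.00373). A fall was called for 33.1% of strands, and the median of all strands was -0.27. Relative to it the members stood at 0.08, -0.08, -0.05 and -0.10. With TMM factors none of these 4 steps passed, and miR-47-3p had 0.03 there. None passed with DESeq2 size factors either (adjusted p = 0.280 for miR-47-5p and 0.195 for miR-46-5p) or in the DESeq2 test (0.241 for miR-47-5p and 0.172 for miR-46-5p). With autocorrelated residuals the passengers did not pass (adjusted p = 0.0685 for miR-47-5p and 0.0727 for miR-46-5p). The share of the miR-35 family grew at this step, and its part in the result was not tested. With library totals that leave those guides out, miR-47-3p averaged 41889 at 43-48 h, against 43743 at 36-42 h, and miR-46-3p averaged 50072 at 43-48 h, against 57225 at 36-42 h. Without 48 h the call of miR-47-5p was lost (adjusted p = 0.0515).

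**Figure D2:**
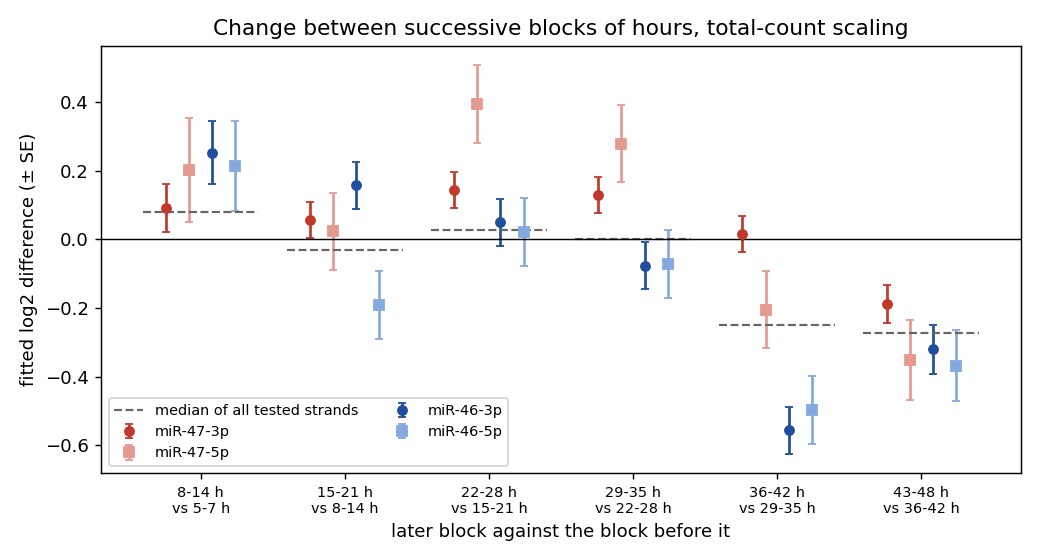
Fitted log2 difference of each block of hours from the block before it, with 1 SE, for miR-47-3p, miR-47-5p, miR-46-3p and miR-46-5p, and the median of all 272 tested strands as dashed lines. At 36-42 h miR-47-3p lies above the median of -0.25 and the miR-46 strands lie at or below -0.50. At 43-48 h the 4 strands lie within 0.10 of the median.

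Set side by side, the late block of 43-48 h and the early block of 15-21 h show where the members parted. This pair of blocks was chosen after the levels were seen, and the p-values take no account of that choice. miR-47-3p averaged 38269 ± 2825 (SD, n = 6 hours) at 43-48 h and 35775 ± 2477 (SD, n = 7 hours) at 15-21 h, and miR-46-3p averaged 45748 ± 3697 at 43-48 h and 85686 ± 6826 at 15-21 h. The fitted differences were 0.10 ± 0.06 for miR-47-3p, 0.11 ± 0.12 for miR-47-5p, -0.91 ± 0.07 for miR-46-3p and -0.92 ± 0.10 for miR-46-5p, with a median of -0.35 over all strands. The miR-47 strands did not pass (adjusted p = 0.0944 and 0.372). The miR-46 strands passed (adjusted p = 3.64e-14 and 4.13e-10), as did 47.8% of strands in that direction. With TMM factors the miR-47 differences were 0.56 and 0.58 and passed (adjusted p = 1.01e-08 and 3.76e-06), and the miR-46 differences were -0.45 for each strand and still passed.

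The ratio of the guides needs no scaling between libraries, and it was used to test the difference between them directly. miR-47-3p over miR-46-3p was 0.525 at 5 h (95% interval 0.518 to 0.532). Its lowest value was 0.385 at 16 h (0.380 to 0.389), and its highest was 0.864 at 46 h (0.852 to 0.875), with 0.614 in the library of 35 h and 0.779 in that of 38 h. Block by block it averaged 0.511, 0.450, 0.418, 0.446, 0.519, 0.769 and 0.837. The 13 libraries from 36 h on lay between 0.658 and 0.864, against 0.385 to 0.614 for the 31 libraries up to 35 h. These ranges did not overlap, but overlap was not counted for other strands relative to miR-46-3p. The median strand gained 0.31 log2 units on miR-46-3p at the step from 29-35 h to 36-42 h. As a share of both guides, miR-47-3p made up 27.8% at 16 h and 46.3% at 46 h. miR-46-3p thus held the larger share in every library.

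With the count of miR-46-3p as the library size in edgeR, miR-47-3p gained 0.27 ± 0.09 log2 units on miR-46-3p over 8-35 h (adjusted p = 0.00617). A gain on miR-46-3p was called for 36.9% of the other strands. No rhythm was called in the ratio of the guides (amplitude 0.03 ± 0.04, adjusted p = 0.845), while 12.5% of strands had one relative to miR-46-3p. Between blocks, miR-47-3p gained 0.22 ± 0.06 at 29-35 h (adjusted p = 0.00304, a call made for 25.5% of strands) and 0.57 ± 0.06 at 36-42 h (adjusted p = 5.43e-10, made for 42.8%). The gain at 43-48 h was 0.13 ± 0.06 and did not pass (adjusted p = 0.121). From 15-21 h to 43-48 h the gain came to 1.01 ± 0.06, or 2.01-fold (adjusted p = 3.65e-17). The median strand gained 0.55 on miR-46-3p over the same blocks, with 53.9% of strands called higher. These blocks, chosen after the levels were seen, had the lowest (0.418) and highest (0.837) block mean of the guide ratio. The p-value takes no account of that choice.

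These gains of the guide ratio rest on treating hours as independent. The ratio drifted over the series with some jumps between neighbouring hours, as from 0.462 at 15 h to 0.385 at 16 h. In the fit with autocorrelated residuals the estimated correlation of neighbouring hours reached its limit of 1. There the estimates were 0.38 ± 0.44 over 8-35 h (adjusted p = 0.517) and -0.01 ± 0.09 at 29-35 h (adjusted p = 0.959). They were 0.10 ± 0.09 at 36-42 h (adjusted p = 0.502) and 0.12 ± 0.19 at 43-48 h over 15-21 h (adjusted p = 0.734), so none passed. With a correlation of 1, a block estimate rests on the changes at block edges and is not a difference of block means. Whether the gains hold with dependent hours cannot be decided from this fit. Leaving out any single library changed none of the calls above, with the gain of 43-48 h over 15-21 h between 0.99 and 1.03. How reads with a sequencing error were credited between such near-identical guides is not given in the sources used here, and its part in the ratio was not tested.

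**Figure D3:**
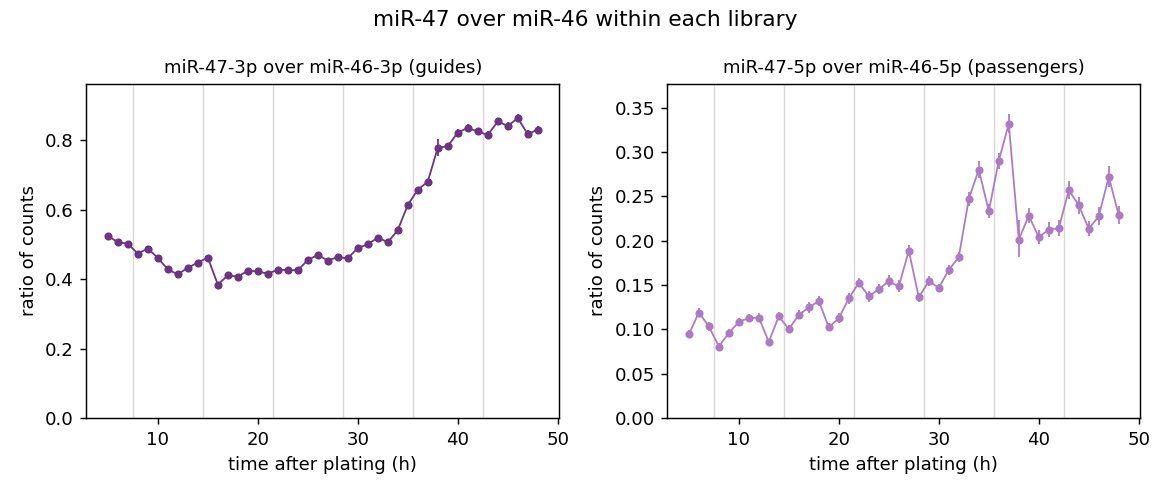
Ratio of counts of miR-47 over miR-46 in each library against hours after plating, for the guides (left) and the passengers (right), with bars for the 95% counting interval and axes that start at 0. The guide ratio is lowest at 16 h (0.385) and stays between 0.658 and 0.864 from 36 h on. The passenger ratio is lowest at 8 h (0.081) and highest at 37 h (0.332).

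The passengers, which come from other parts of the hairpins, gave another readout of the pair, added after the levels were seen. miR-47-5p over miR-46-5p had its lowest value of 0.081 at 8 h, a median of 0.151 and its highest value of 0.332 at 37 h. It lay between 0.213 and 0.272 in the 6 libraries of 43-48 h, against 0.101 to 0.135 in the 7 libraries of 15-21 h, without overlap. Overlap was not counted for other strands relative to miR-46-5p, and the median strand gained 0.58 log2 units on it over these blocks. The block means of the passenger ratio were 0.106, 0.102, 0.118, 0.152, 0.202, 0.240 and 0.240, level over the last blocks. By block means it went up from 15-21 h on and the guide ratio from 22-28 h on. This order in time was not tested.

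In edgeR with miR-46-5p as the library size, miR-47-5p gained 1.27 ± 0.14 log2 units on miR-46-5p over 8-35 h (2.40-fold, adjusted p = 6.11e-09), a direction called for 44.3% of strands. The gain at 43-48 h over 15-21 h, blocks chosen after the levels were seen, was 1.03 ± 0.14 (2.04-fold, adjusted p = 1.16e-08, called for 52.4%). Both calls held with autocorrelated residuals, at 1.29 (adjusted p = 6.65e-06) and 1.13 ± 0.22 (adjusted p = 6.68e-05) log2 units. Over single steps miR-47-5p gained 0.36 ± 0.13 at 22-28 h (adjusted p = 0.031, called for 18.8%) and 0.40 ± 0.13 at 29-35 h (adjusted p = 0.0147, called for 22.9%), and did not pass at 36-42 h (0.27 ± 0.13, adjusted p = 0.104). The steps did not pass with autocorrelated residuals (adjusted p = 0.29 and 0.427), the first was also lost without 15, 19, 20 or 27 h (up to 0.077) and the other without 34 h (0.0586). Without 34 h the step at 36-42 h was 0.35 and passed (adjusted p = 0.0277).

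The strands of each hairpin were then compared with each other. By mean level the guide exceeded the passenger 13.2-fold in miR-47 and 3.91-fold in miR-46, against a median of 22.1-fold over the 102 hairpins with both strands tested. From the smallest excess upwards, miR-47 stood at rank 45 and miR-46 at rank 21. miR-47-5p over miR-47-3p ranged from 0.054 at 19 h to 0.108 at 34 h with a median of 0.072. miR-46-5p over miR-46-3p ranged from 0.205 at 37 h to 0.372 at 8 h with a median of 0.252. The ranges of the hairpins did not overlap at any hour.

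Over 8-35 h these ratios moved in opposite directions. In miR-47 the passenger gained 0.52 ± 0.14 log2 units on its guide (1.43-fold, adjusted p = 0.0038), and in miR-46 the passenger-to-guide ratio changed by -0.47 ± 0.14 (adjusted p = 0.00622), from edgeR with the library as a factor. The passenger gained in 22.5% and lost in 23.5% of the hairpins at that adjusted p. The difference between the hairpins in this ratio was not tested by itself. By block, miR-47-5p over miR-47-3p averaged 0.066, 0.069, 0.068, 0.081, 0.090, 0.077 and 0.068, and miR-46-5p over miR-46-3p averaged 0.319, 0.309, 0.243, 0.236, 0.236, 0.248 and 0.237.

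No step between blocks passed in miR-47, though without 37 h its step at 36-42 h did (-0.30, adjusted p = 0.0298). In miR-46 the ratio fell at 15-21 h relative to 8-14 h, with a step of -0.36 ± 0.10 (adjusted p = 0.00814, a fall called for 15.7% of hairpins), and no other step passed. No rhythm was called in either ratio, with amplitudes of 0.08 ± 0.06 in miR-47 and 0.13 ± 0.06 in miR-46 (adjusted p = 0.63 and 0.186), whereas 19.6% of hairpins had one. Between 43-48 h and 15-21 h the ratio differed by 0.02 ± 0.12 in miR-47 (95% interval -0.22 to 0.25) and by -0.01 ± 0.11 in miR-46 (95% interval -0.22 to 0.20), while 51.0% of hairpins had a call. The late fall of miR-46 was thus seen in passenger and guide alike. The interval on the difference between them treats hours as independent, and no fit with autocorrelated residuals was run for these ratios.

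**Figure D4:**
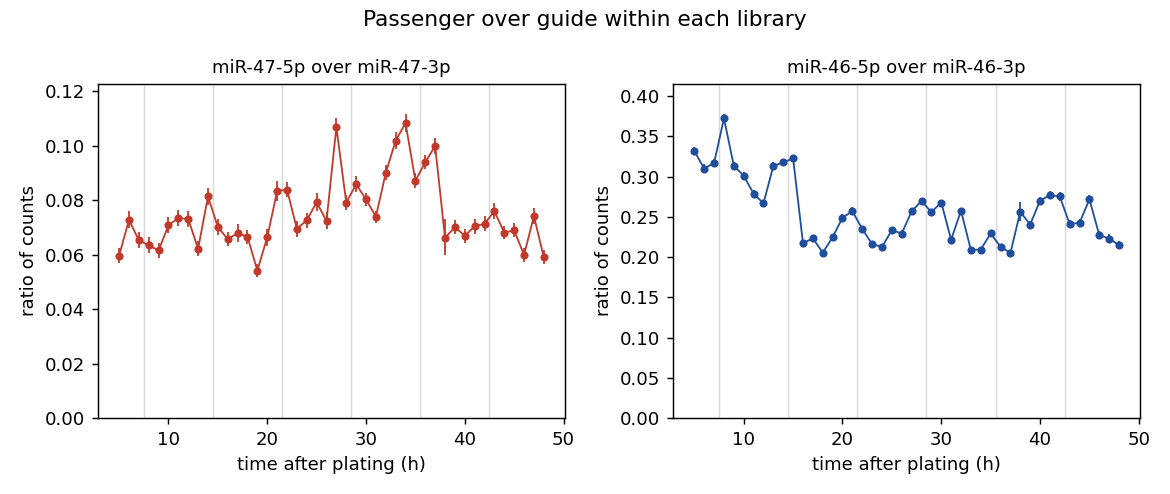
Ratio of passenger to guide counts in each library against hours after plating, for miR-47 (left) and miR-46 (right), with bars for the 95% counting interval and axes that start at 0. miR-47 is highest at 34 h (0.108), and miR-46 is highest at 8 h (0.372) and lies lower from 16 h on.

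A model in which the guide is made in proportion to its passenger and lost at a constant rate was fitted to all 44 libraries, as a description with no test. For miR-47 no half-life within the search was found, since the fit ended at the upper limit of 200 h, as it did for 11 hairpins in all, and 61.5% of the guide's variance was left unexplained. That put miR-47 at rank 87 of 102 hairpins from the smallest share, above the median of 19.9%. For miR-46 the best half-life was 2.15 h, with 15.1% of the variance left unexplained, at rank 46. The median best half-life over the 102 hairpins was 6.93 h. According to the study, such a model works well where the passenger is very short-lived and far less stable than its guide. Passenger half-lives were not measured here, and the miR-46 guide exceeded its passenger only 3.91-fold by mean level. Whether these hairpins meet those conditions is thus not known, and the half-life of 2.15 h is a fitted value only. In the study's model the loss also includes dilution, so a fitted half-life is not that of degradation alone. Left-out libraries moved the half-life of miR-46 between 2.03 and 2.27 h, and even hours alone gave 2.32 h, odd hours 1.95 h and errors on the log2 scale 1.88 h. Under this model the passenger curve left a larger share of the variance of miR-47-3p than of miR-46-3p undescribed. The share is relative to each guide's own variance, and miR-47-3p varied less. Its highest level was 1.59-fold its lowest, against 2.52-fold for miR-46-3p.

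**Figure D5:**
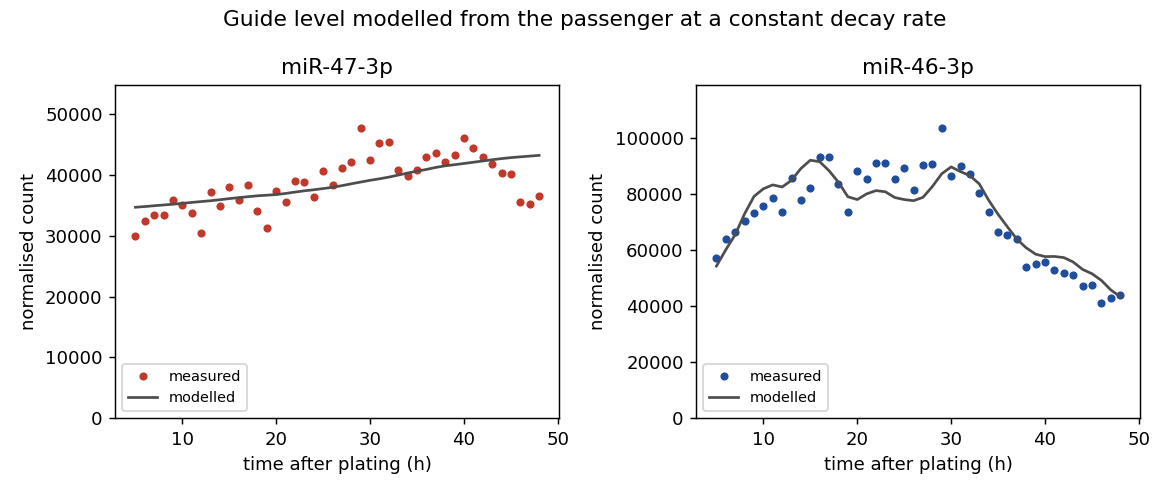
Measured normalised counts (points, 1 per library) and the constant-decay model (line) against hours after plating, for miR-47-3p (left) and miR-46-3p (right). The line for miR-47-3p, at the limit of 200 h, leaves 61.5% of the variance, and the line for miR-46-3p follows the decline after 32 h and leaves 15.1%.

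Across the 44 libraries, which share the time course and the scaling, profiles were compared by Pearson's r of log2 normalised counts with 8 added, as a description. The strands of a hairpin went together, with r of 0.81 in miR-47 and 0.85 in miR-46. Between the hairpins r was 0.03 for the guides and 0.01 for the passengers, and 165 of the 271 other strands were closer to miR-46-3p than miR-47-3p was. The profiles most like that of miR-47-3p were those of miR-1829c-5p (0.84), miR-59-3p (0.82), miR-66-5p (0.81), miR-65-3p (0.81) and miR-800-3p (0.81). Those most like miR-46-3p were miR-788-5p (0.91), miR-8196a-3p (0.90), miR-795-5p (0.88), miR-243-3p (0.87) and miR-86-5p (0.87). With these values and r of 0.03 between the guides, no strand could be among the 5 closest to both guides, and none was. As an example of each profile, miR-66-5p had 98272 normalised counts at 48 h, against 117974 at 29 h, and miR-86-5p had 16933 at 48 h, against 35621 at 29 h.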

How the data were processed

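Small RNA libraries of whole N2 worms were sequenced by the authors, 1 library for each hour. According to the study's methods, the authors trimmed adapters, aligned reads to ce10 with Bowtie through QuasR, lifted the miRBase annotation to that build and counted same-orientation reads by where they began, close to the 5' end of each mature strand. The deposited raw counts per strand were used for every test. The deposited log2 values, made by the authors from those counts after scaling to the mean library total with 8 added, were matched to the counts within 5e-04 and not used further.

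The tests covered 272 of 437 strands, those whose mean count reached 10, and left out 165. Library totals, from 1669246 to 14672735, were the scaling. edgeR quasi-likelihood models (edgeR 4.0.16, R 4.3.3) had an intercept, a linear term and a cosine and a sine of 7 h for 8-35 h (28 libraries), and 7 blocks with the same cosine and sine for all 44 libraries. Changes over 8-35 h are the linear term times 27 h, and the same factor was kept for the shorter windows. Ratios between members used the count of miR-46-3p or miR-46-5p as the library size, and passenger over guide was tested over 102 hairpins with the library as a factor. Adjusted p-values are Benjamini-Hochberg over all rows of a fit at 0.05. Half-lives were searched between 0.1 and 200 h. Scripts were tested on simulated counts.

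The other settings were scaling with TMM or with DESeq2 size factors, a DESeq2 1.42.0 test, limma 3.58.1 on log2 values with 8 or 1 added, no filter or a mean of at least 100, periods of 6.5, 7.5 and 8 h, windows of 8-28 h and 15-35 h, a spline trend, no cosine and sine, even or odd hours, first-order autocorrelated residuals (nlme 3.1.168) and each library left out. Not every fit was run under each. Levels and the decay model were computed with pandas 2.3.3, SciPy 1.17.1 and NumPy 2.4.6 in Python 3.11.15, and plots with matplotlib 3.10.9.

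The named strands were all rows of miR-46 and miR-47 and, for each guide, the 5 other tested strands with the highest correlation over the 44 libraries. Other strands with the same seed were not looked for, as sequences were not analysed here. The members and this list were chosen with earlier results of these data known. The contrast of 43-48 h with 15-21 h, the block steps of the ratios, the passenger pair and totals without the miR-35 family were added after the levels were seen. Coordinates are from WBcel235 alone, and none were converted.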

Additional observations from a re-analysis of the deposited data

How the results depend on the processing

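No paired analysis was possible because there was 1 library per hour, so that no hours share replicate numbers. Strands were compared within libraries in the ratio fits. Of 460 values recomputed under other settings than a left-out library, 381 kept their direction and side of the threshold, 43 no longer passed, 17 newly passed, 16 changed sign and 3 half-lives moved. The cause was not tested in any of them.

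Changes are log2 units, and a step is named by its later block. With TMM factors miR-47-3p had 0.125 at 29-35 h, which no longer passed, 0.23 at 36-42 h, which passed, 0.032 at 43-48 h, which changed sign, and 0.56 for 43-48 h against 15-21 h, which passed. miR-47-5p changed sign at 36-42 h (0.0040), no longer passed at 43-48 h (-0.128) and passed for 43-48 h against 15-21 h (0.58). miR-46-5p no longer passed over 8-35 h (-0.202) or at 43-48 h (-0.149). miR-46-3p had 0.16 at 8-14 h and -0.099 at 43-48 h, which no longer passed, and 0.27 at 15-21 h, which passed. With DESeq2 size factors miR-47-3p had -0.087 at 8-14 h and 0.0082 at 43-48 h, both changed in sign, 0.125 at 22-28 h, which no longer passed, and 0.43 for 43-48 h against 15-21 h, which passed. miR-47-5p changed sign at 15-21 h (-0.027), no longer passed at 43-48 h (-0.151) and passed for 43-48 h against 15-21 h (0.451). miR-46-5p passed as lower at 15-21 h (-0.251) and no longer passed at 43-48 h (-0.169). miR-46-3p passed over 8-35 h (0.20) and did not at 8-14 h (0.073) or 43-48 h (-0.124). The DESeq2 test gave the same outcomes for these strands (miR-47-3p -0.087, 0.0078 and 0.43, miR-47-5p -0.028 at 15-21 h, miR-46-3p 0.20, 0.073 and -0.125), apart from 22-28 h, and miR-47-3p passed at 36-42 h (0.122).

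Without the filter on low counts the steps of miR-47-3p at 22-28 h (0.144) and 29-35 h (0.128) and of miR-46-3p at 8-14 h (0.25) no longer passed. The step of miR-47-3p at 29-35 h also failed without cosine and sine (0.129) and in limma with 8 added (0.128) or 1 added (0.128), where that of miR-46-3p at 8-14 h failed as well (0.247 each). The slope of miR-46-3p, given per 27 h, passed in the window 8-28 h (0.41) and changed sign in 15-35 h (-0.080).

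With autocorrelated residuals miR-47-3p had 0.136 at 22-28 h and 0.13 at 29-35 h and miR-46-3p had 0.22 at 8-14 h, which no longer passed. The change of miR-46-3p over 8-35 h changed sign (-0.041), in a fit whose correlation reached 1. miR-46-5p changed sign at 22-28 h (-0.091). For miR-47-3p against miR-46-3p the correlation was 1, so that block estimates were not differences of block means. There the estimates over 8-35 h (0.38), at 36-42 h (0.10) and for 43-48 h against 15-21 h (0.12) no longer passed. Those at 15-21 h (0.049), 29-35 h (-0.0095) and 43-48 h (-0.016) changed sign. miR-47-5p against miR-46-5p changed sign at 43-48 h (0.116, and 0.023 in limma with 8 added).

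Leaving out each library in turn gave ranges of 0.12 to 0.16 for miR-47-3p at 22-28 h, 0.11 to 0.15 at 29-35 h and -0.0064 to 0.036 at 36-42 h. For miR-46-3p they were 0.11 to 0.24 over 8-35 h, 0.20 to 0.28 at 8-14 h and 0.13 to 0.20 at 15-21 h. The passenger steps ran from -0.020 to 0.090 for miR-47-5p at 15-21 h and from -0.015 to 0.066 for miR-46-5p at 22-28 h. miR-47-5p against miR-46-5p ran from -0.078 to 0.082 at 8-14 h and from -0.052 to 0.11 at 43-48 h. The passenger-to-guide ratio of miR-47 ran from -0.079 to 0.013 at 15-21 h and from -0.036 to 0.072 for 43-48 h against 15-21 h. That of miR-46 ran from -0.076 to 0.019 at 8-14 h, -0.058 to 0.034 at 22-28 h, -0.041 to 0.028 at 29-35 h and -0.062 to 0.047 for 43-48 h against 15-21 h. The half-life of miR-46 was 2.32 h with even hours, 1.95 h with odd hours, 1.88 h on the log2 scale and 2.03 to 2.27 h with left-out libraries.

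Depth limits little, since the lowest count of a member was 441. There was a single time course, and how reads were credited between near-identical guides was not tested.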
